A study of Rattus norvegicus with 63 samples.

Results

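The comparison described here is between the septum of rats given long daily access to cocaine and the septum of rats given none. It was taken from a rat brain series on an Affymetrix neurobiology array, by choosing the arrays titled septum with long access (3 arrays) and with no access (3 arrays), which are 6 of the 63 arrays of the series. The cocaine groups self-administered intravenous injections of 0.25 mg each on a continuous schedule, and each of the 3 access groups held 8 rats. No access rats were drug-naive and had 0 h of access per day, short access rats had 1 h per day, and long access rats had 6 h per day. The strain, age and sex of the rats, the number of days of access and the time between the last session and dissection were not given in the sources used here. The labels number the replicates of each group but do not say whether an array holds RNA from 1 rat or from a pool, so p-values measure only the spread between these arrays, part of which may be technical. The 3 short access septum arrays entered the same fit and are given beside the other 2 groups. The array held 1263 probe sets that were not controls, of which 736 (462 named genes) had a mean signal of at least 100 over the 9 septum arrays and were tested.

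The septum lies between the lateral ventricles, with the accumbens below it and white matter above it. Its lateral part is made mostly of GABA neurons that receive glutamate input from the hippocampus, and its medial part holds cholinergic, GABA and glutamate neurons that project back to the hippocampus. It is reciprocally connected with the lateral hypothalamus and the ventral tegmental area and is known for its part in reward, motivation and anxiety. Because it borders the ventricles, dissected septum can carry choroid plexus and ependyma, and because it borders other tissue it can carry accumbens or cortex.

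The tissue was checked against marker lists by its mean level over access groups, set against the other 5 regions in a single limma fit of all 63 arrays. Of 4 septal neuron markers tested, Slc18a3, the vesicular acetylcholine transporter, was higher than the mean of the other regions by 0.67 on the log2 scale (adjusted p = 2.65e-08, limma). It was not higher than in the adjoining accumbens, reading 8.68 in the septum and 8.82 there. Ngfr, the low-affinity neurotrophin receptor of basal forebrain cholinergic neurons, did not pass (0.13, adjusted p = 0.305), while Sst was lower by 0.82 and Gal lower by 1.09. Gal lay at the floor of 5 in the septum (5.01) and accumbens (5.00) and read 9.55 in the lateral hypothalamus. Its difference therefore reflects the high level in that region and does not bear on the identity of the septum. Slc18a3 and Sst went opposite ways, so these markers did not set the septum apart in a single direction. The 5 choroid plexus and ependyma markers were all higher than the mean of the other regions, from 1.30 for Htr2c to 2.46 for Igfbp2. Htr2c was nonetheless level with the accumbens (8.71 in the septum, 8.69 there). Of 8 striatal markers, 5 were lower than the mean of the other regions and 1 (Pcp4) was higher. That mean includes the accumbens, where these markers read highest, and Pcp4 read 11.73 in the septum and 12.14 there. Adora2a, among the lower markers, read 7.28 in the septum, 10.57 in the accumbens and 7.10 in the lateral hypothalamus. These counts therefore do not show how much accumbens the septum samples carried. The 6 oligodendrocyte markers were all higher than the mean of the other regions. Not every region lay below the septum: Mbp read 14.12 there, 14.63 in the lateral hypothalamus and 14.98 in the ventral tegmental area. Cnp, Mog and Tf were also lower in the septum than in both of these regions.

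Of 6 measures of array quality, 2 did not overlap between no and long access. The mean log2 signal of the 9 spike-in control probe sets was 10.76 ± 0.25 (SD, n = 3) on the no access arrays and 11.13 ± 0.06 on the long access arrays, with no overlap (exact permutation p = 0.1, two-sided, the smallest that 3 against 3 arrays can give, and 0.2 after adjustment over 14 measures). The median signal as deposited was 68.7, 70.9 and 70.7 on the no access arrays and 73.4, 74.0 and 73.3 on the long access arrays, also with no overlap and the same p. Under quantile normalization, which gives the arrays equal medians, 12 probe sets passed, all of them among the 17 described below. The antisense controls, the log2 gap between 3′ and 5′ probe sets of actin and of Gapdh, and the share of probe sets at the floor (21.3% and 20.6%) overlapped between the groups, with exact permutation p from 0.4 to 0.9. The summed signal of 8 marker lists is given with those lists below. No septum array duplicated another, the highest correlation between any 2 being 0.985.

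After long access, 17 of 736 probe sets differed from no access at an adjusted p under 0.05 (limma, Benjamini-Hochberg), which is 2.31%. Of these, 7 were higher (0.951%) and 10 were lower (1.36%), and they named 12 genes. The genes that rose were Hspb2, Kcnj10, Fgfr1, Gnb1, Vim and S100b, and those that fell were Igf2, Nptxr, Mag, Gabbr1, Abat and Igfbp2. Called differences ran from 0.93 for Hspb2 (1.91-fold higher) to -1.14 for Igf2 (2.21-fold lower), against a median size of 0.16 over all probe sets tested. In all 17 the long access arrays lay outside the range of the no access arrays, as they did in 183 of the 736 probe sets (24.9%). An unadjusted p under 0.05 was reached by 142 probe sets (19.3%), 71 in each direction (9.65% each).

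**Figure D1:**
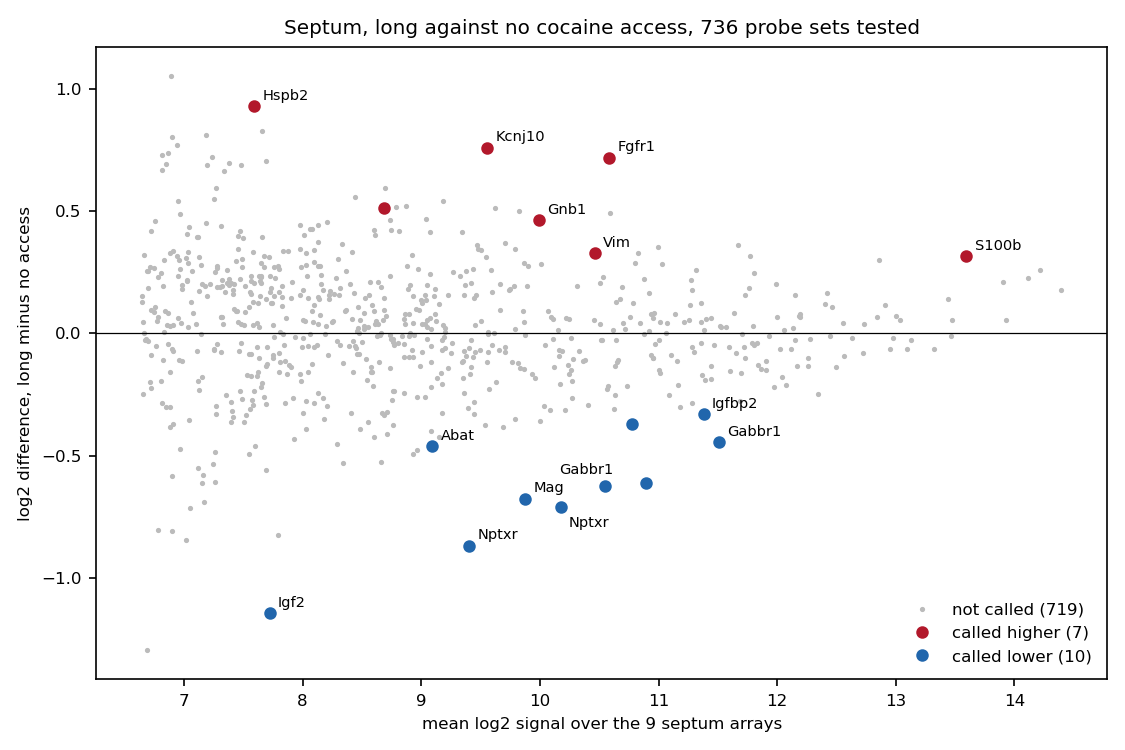
Each point is 1 of 736 probe sets, with its mean log2 signal over the 9 septum arrays on the x axis and its log2 difference, long minus no access, on the y axis. Red and blue points are the 7 higher and 10 lower calls, which lie between 0.32 and 0.93 and between -0.33 and -1.14, and larger differences without a call lie at low signal.

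The count depended on single arrays and on which samples were fitted. Without no access array 1, 2 or 3 it was 11, 10 and 9, and without long access array 2 or 3 it was 9 and 10. In a single fit of all 63 arrays no septal probe set passed (lowest adjusted p 0.226). That fit tested 858 probe sets and shared 1 estimate of the spread, and the median spread within groups was 0.19 in the septum but 0.33 in the amygdala and 0.39 in the medial prefrontal cortex. When the fit was given the spike-in level, an alternative chosen after seeing the data, 8 passed, 7 of them among the 17. Those 7 included Fgfr1, Kcnj10, Mag, both Gabbr1 probe sets and Nptxr (rc_AI045501_s_at), while Gnb1 (adjusted p = 0.257) and Igf2 (adjusted p = 0.112) did not pass.

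**Figure D2:**
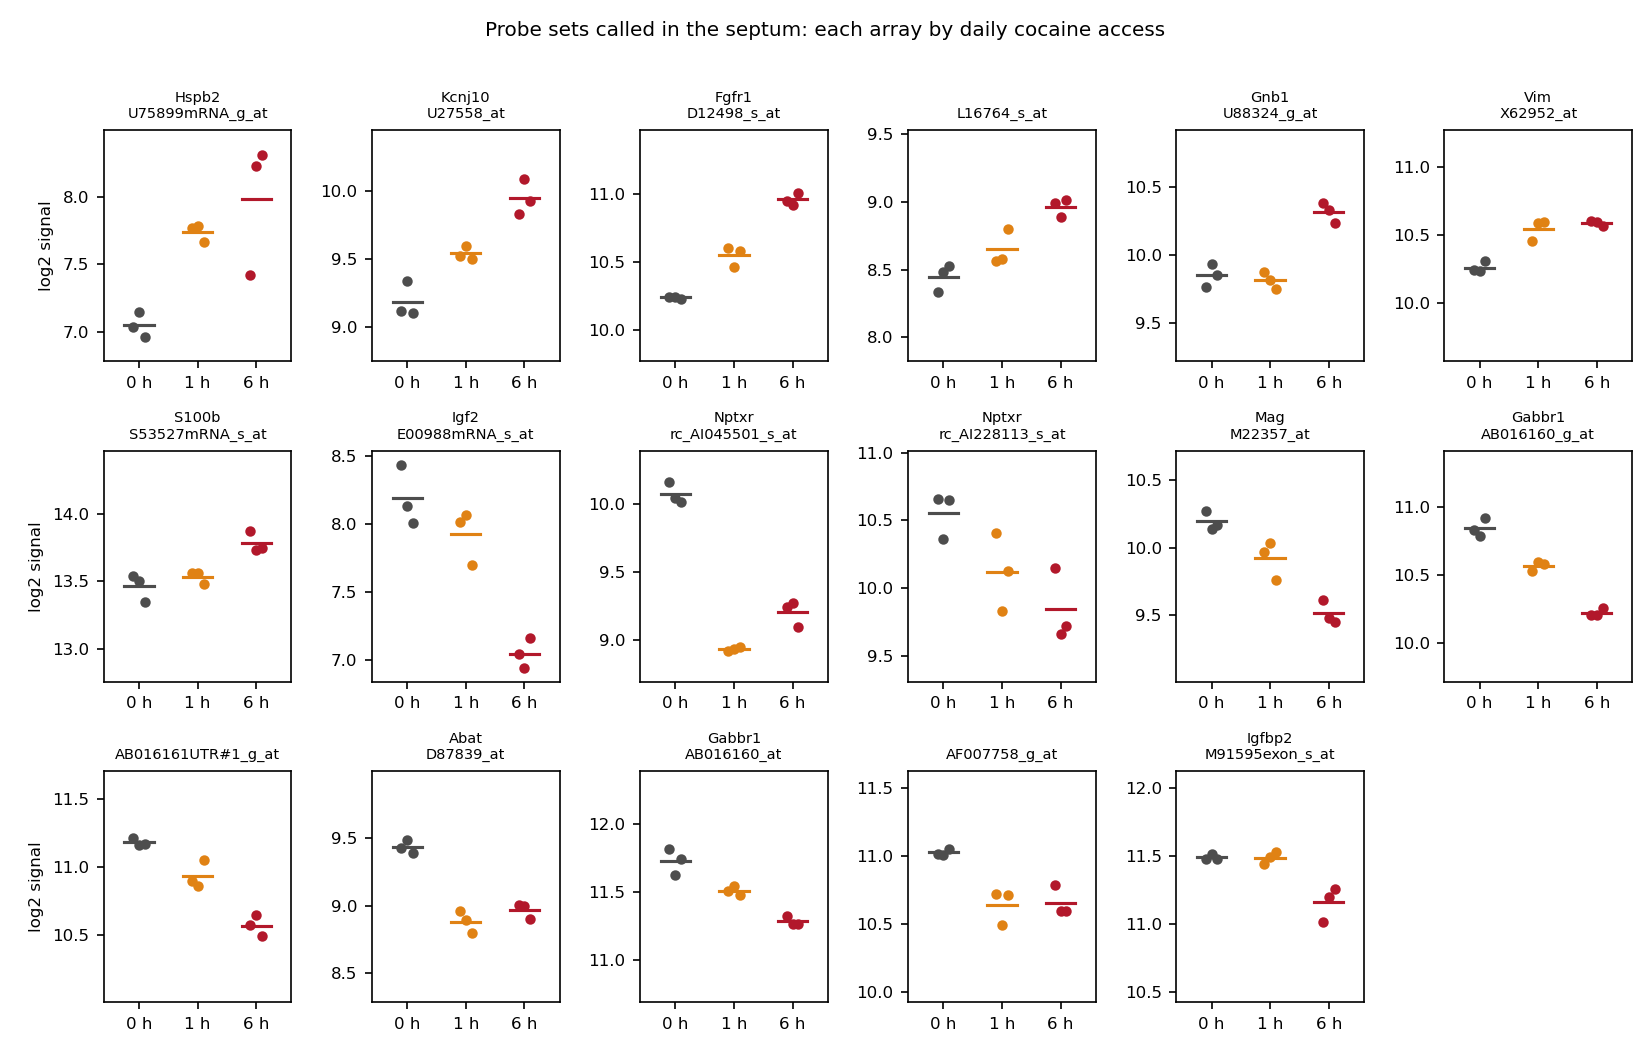
Log2 signal (y axis) of the 17 called probe sets on each septum array at 0, 1 and 6 h of daily access (x axis); points are arrays and bars are means of 3 arrays, and each panel spans the same log2 range. The long access points lie outside the no access points in every panel, and in 13 panels the short access mean lies between the other means.

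Among markers of astrocytes, the glia that take up glutamate and buffer potassium, 3 of 9 rose (Kcnj10, Vim and S100b) and none fell. Over all 462 genes, each read on its brightest probe set as in the lists, 6 were called higher (1.3%) and 4 lower (0.866%), or 2.16% in all, and 202 (43.7%) stood below 0 and 260 (56.3%) above. Kcnj10, the inward rectifier channel Kir4.1 through which astrocytes clear potassium, read 9.12, 9.33 and 9.10 on the no access arrays. It read 9.52, 9.60 and 9.50 after short access and 9.83, 10.09 and 9.92 after long access (U27558_at). The 3 groups did not overlap and were ordered by hours of access, with a difference of 0.76 ± 0.10 (SE) between long and no access (1.69-fold, adjusted p = 0.000661, limma). The other Kcnj10 probe set tested, X83585cds_s_at, did not pass (-0.16 ± 0.14).

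Vim, the intermediate filament vimentin of astrocytes, ependyma and vessels, read 10.24, 10.23 and 10.30 without access, 10.45, 10.59 and 10.59 after short access and 10.60, 10.59 and 10.57 after long access. Its short access arrays were already near the long access level, and the long minus no access difference was 0.33 ± 0.07 (adjusted p = 0.033, limma). S100b, a calcium-binding protein released by astrocytes, read 13.54, 13.50 and 13.35 without access and 13.87, 13.73 and 13.75 after long access. Short access left it at 13.57, 13.56 and 13.49, overlapping no access, and its difference of 0.32 ± 0.07 had an adjusted p of 0.036 (limma). The Vim and S100b calls were fragile: with single arrays left out they passed in 3 and 2 of 9 fits, with adjusted p up to 0.0959 and 0.133.

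The remaining 6 astrocyte markers did not pass. The glutamate transporters Slc1a2 (-0.01) and Slc1a3 (0.02), glutamine synthetase Glul (0.06) and the gap junction gene Gja1 (-0.00) were near 0, Apoe stood at 0.18 and the GABA transporter Slc6a11 at -0.38. The list median was 0.06, close to the median of 0.04 over all 462 genes tested. Its summed signal was 52738 ± 1841 (SD, n = 3) without access, 53717 ± 2272 after short access and 59192 ± 1796 after long access. The long access arrays did not overlap the no access arrays in this sum (exact permutation p = 0.1, the smallest possible, 0.2 adjusted). The called genes Kcnj10, Vim and S100b are part of the sum, so it is not separate from their calls. It is weighted to the brightest genes, by mean log2 signal Apoe (14.39), S100b (13.60) and Glul (13.48), of which only S100b was called. Vim (10.46) and Kcnj10 (9.56) weigh less in it. In bulk tissue, fewer or more cells of a type cannot be told apart from less or more RNA per cell.

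GABA genes gave 2 falls and no rise among 17 tested, beside 0.866% and 1.3% of all genes. Gabbr1 encodes the subunit of the GABA-B receptor that binds GABA, and Abat the mitochondrial transaminase that breaks GABA down. On AB016160_g_at, Gabbr1 read 10.83, 10.79 and 10.92 without access, 10.53, 10.60 and 10.58 after short access and 10.20, 10.20 and 10.26 after long access. Again the 3 groups were separate and ordered by hours of access, and the difference was -0.63 ± 0.07 (1.54-fold lower, adjusted p = 0.000224, limma). On AB016160_at it read 11.81, 11.63 and 11.74 without access and 11.33, 11.27 and 11.26 after long access, a difference of -0.44 ± 0.07 (adjusted p = 0.00228, limma). Another lower Gabbr1 probe set, rc_AA926213_g_at, lay just outside the threshold (-0.42 ± 0.10, adjusted p = 0.0502).

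Not every Gabbr1 probe set was lower. AB016161cds_i_at and AB016161cds_r_at stood at 0.21 ± 0.22 and 0.42 ± 0.25, and neither passed. AB016161UTR#1_g_at, which has no gene in the annotation used, read 11.22, 11.16 and 11.17 without access and 10.57, 10.64 and 10.49 after long access, a difference of -0.61 that passed (adjusted p = 0.000454, limma). Gabbr2, the partner subunit that couples the receptor to G proteins, stood at 0.06.

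Abat read 9.42, 9.48 and 9.39 without access, 8.96, 8.89 and 8.79 after short access and 9.01 and 8.90 on long access arrays 1 and 3, with array 2 between them. Both cocaine groups lay below all no access arrays and overlapped each other, so the 1 h and 6 h groups could not be separated (long minus no access -0.46 ± 0.09, adjusted p = 0.0205, limma). The Abat call held in 4 of 9 fits with an array left out (adjusted p up to 0.0826). Among the other GABA genes the synthetic enzyme Gad1 stood at 0.36, the vesicular transporter Slc32a1 at -0.14 and the receptor subunits from -0.27 (Gabra5) to 0.70 (Gabra4, adjusted p = 0.214), and the list median was 0.07.

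Promoter sequence is shown for Gabbr1, which fell, and Kcnj10, which rose, because among the 8 called genes with an entry they held the most GC boxes. The GC box, GGGCGG on either strand, is the letters bound by Sp1-family factors and is printed in capitals. Both runs are the 250 bases before the RefSeq gene start in GRCr8, at chr20:1499237-1499486 on the minus strand for Gabbr1 and at chr13:87334260-87334509 on the plus strand for Kcnj10.
Gabbr1: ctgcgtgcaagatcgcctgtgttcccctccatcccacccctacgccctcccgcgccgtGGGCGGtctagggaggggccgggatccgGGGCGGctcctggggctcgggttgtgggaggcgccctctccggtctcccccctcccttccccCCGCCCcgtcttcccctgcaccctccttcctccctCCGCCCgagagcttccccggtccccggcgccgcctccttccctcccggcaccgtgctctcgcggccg
Kcnj10: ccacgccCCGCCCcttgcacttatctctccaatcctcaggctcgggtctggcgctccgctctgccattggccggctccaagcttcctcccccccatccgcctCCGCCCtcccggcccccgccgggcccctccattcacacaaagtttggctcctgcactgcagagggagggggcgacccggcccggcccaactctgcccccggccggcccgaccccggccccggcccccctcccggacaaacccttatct
The Gabbr1 run holds 4 matches and has a GC content of 75.6%, and the Kcnj10 run holds 2 matches at 72.4%. GC boxes were also found before Igf2, Vim and Igfbp2, making 5 of 8 genes, beside 49.9% of 615 promoters of genes on this array and 30.5% of 33469 rat promoters. The genes were counted on any entry and the backgrounds per promoter. Igf2 had an entry with 1 match and another with 0. The cyclic AMP response element TGACGTCA and the AP-1 letters TGANTCA, searched on both strands, were found in none of the 8, beside 3.09% and 7.15% of the array's promoters. Gabbr1 and Kcnj10 were chosen for their GC boxes, so that both hold them is not a result. The arrays measured no binding to these letters. Fgfr1, Nptxr, Abat and Hspb2 had no entry.

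Among growth factor genes, Fgfr1 rose while Igf2 and Igfbp2 fell. Fgfr1, a receptor tyrosine kinase for fibroblast growth factors, read 10.24, 10.24 and 10.23 without access. It read 10.60, 10.46 and 10.58 after short access and 10.95, 10.92 and 11.01 after long access (D12498_s_at). This was the only called probe set to pass in all 3 comparisons among the groups, with a long minus no access difference of 0.72 ± 0.07 (1.65-fold, adjusted p = 0.000121, limma). A second Fgfr1 probe set at a similar array signal, S54008_i_at, did not follow it (-0.11 ± 0.11). The ligand Fgf2 stood at 0.03.

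Igf2, the insulin-like growth factor made in brain mainly by choroid plexus and meninges, had the lowest value of all calls on E00988mRNA_s_at. It read 8.44, 8.13 and 8.01 without access, 8.02, 8.07 and 7.70 after short access and 7.04, 6.94 and 7.16 after long access. The long access arrays lay below all 6 others, and the difference was -1.14 ± 0.17 (adjusted p = 0.00172, limma). Its other probe sets did not pass: X17012mRNA_s_at stood at -0.18 ± 0.07, M17960_g_at at -0.08 ± 0.17 and M17960_at at 0.74 ± 0.29, so the probe sets of this gene disagreed in direction.

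Igfbp2, a binding protein for insulin-like growth factors that is abundant in choroid plexus, read 11.47, 11.51 and 11.48 without access and 11.02, 11.20 and 11.26 after long access. Short access left it at 11.44, 11.50 and 11.53, level with no access, and its long minus no access difference was -0.33 ± 0.07 (adjusted p = 0.036, limma). The second Igfbp2 probe set went the same way without passing (-0.25 ± 0.09). The call held in 2 of 9 fits with an array left out, with adjusted p up to 0.122. Across 23 neurotrophic factors and receptors 1 rose (Fgfr1) and 1 fell (Igfbp2), beside 1.3% and 0.866% of all genes, the median was 0.03, and differences that did not pass ran from -0.58 for Igf1 to 0.77 for Pdgfrb.

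Igf2 and Igfbp2 also belong to the choroid plexus and ependyma markers, whose 5 tested members were all below 0 after long access on their brightest probe sets. Only Igfbp2 passed, beside 0.866% of all genes called lower. The serotonin receptor Htr2c, dense in choroid plexus, read 8.95, 9.07 and 8.91 without access, 8.58, 8.56 and 8.63 after short access and 8.41, 8.68 and 8.60 after long access, with a difference of -0.41 ± 0.11 that did not pass (adjusted p = 0.0643, limma). On its other probe set, U35315_at, Htr2c stood at 0.06 ± 0.15. Extracellular superoxide dismutase Sod3 stood at -0.38 (adjusted p = 0.0731), Enpp2, the enzyme autotaxin, at -0.21 and Igf2 at -0.18 on its brightest probe set. The list median was -0.33 against 0.04 over all genes tested, and it was the same sign under each scaling of the arrays.

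The summed signal of these 5 genes was 13273 ± 512 (SD, n = 3) without access, 13104 ± 252 after short access and 11196 ± 39 after long access. All 3 long access arrays lay below all 6 others (exact permutation p = 0.1 against no access, the smallest possible, 0.2 adjusted). Igfbp2, which was called, is part of this sum. How far the amount of choroid plexus in the dissected tissue had a part in the Igf2, Igfbp2 and Htr2c values was not tested.

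**Figure D3:**
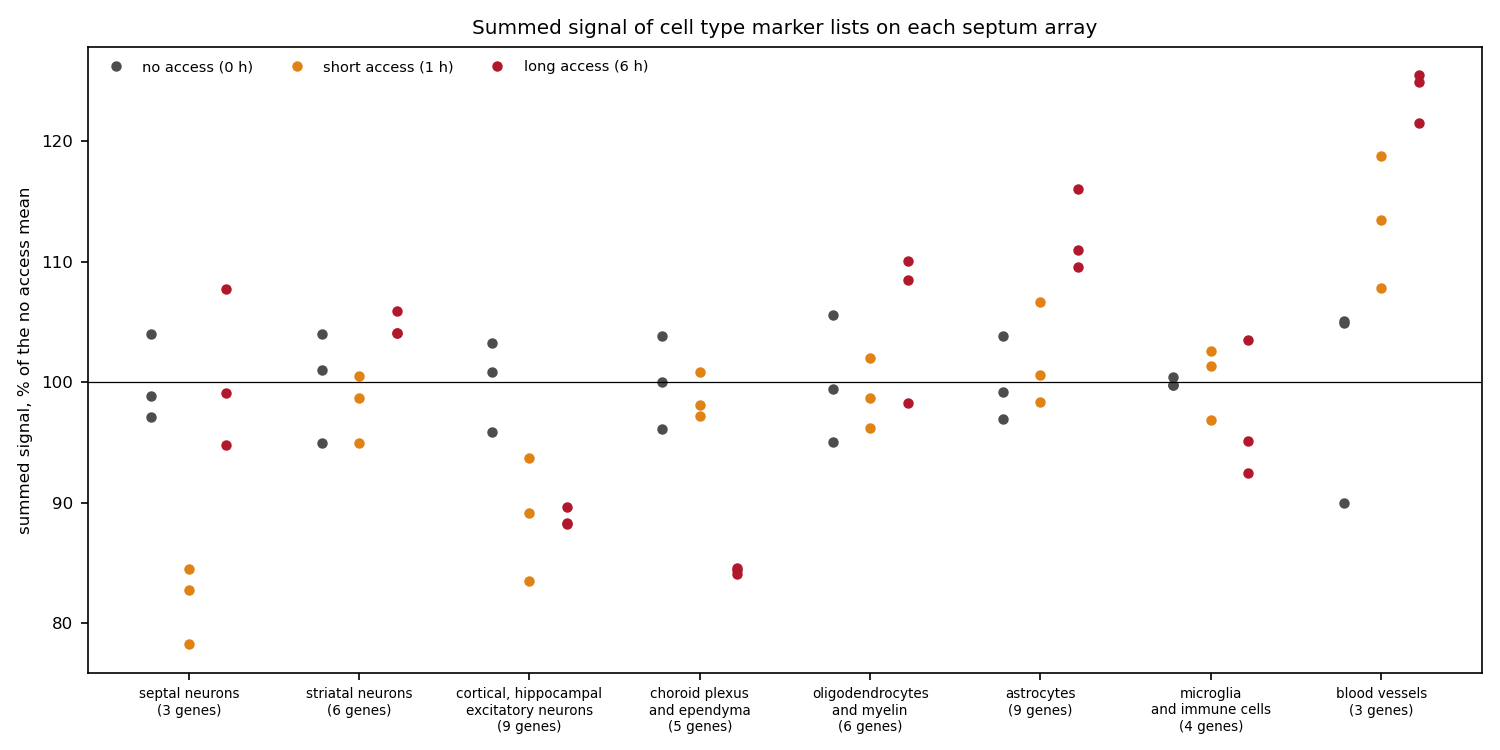
Summed linear signal of each marker list on each septum array, as a percent of the no access mean (y axis), for 8 cell types (x axis, genes tested in parentheses); each point is an array. The choroid plexus sum is lower on the 3 long access arrays than on all others, the astrocyte and vessel sums are higher there, and the septal neuron sum is lowest on the short access arrays.

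Among neuronal and synaptic genes the call was Nptxr. It encodes the transmembrane neuronal pentraxin receptor, which helps to gather AMPA receptors at synapses, and it fell on both of its probe sets. On rc_AI045501_s_at it read 10.16, 10.05 and 10.01 without access, 8.92, 8.93 and 8.95 after short access and 9.24, 9.27 and 9.10 after long access. The lowest arrays were those of short access, and long access lay below no access by 0.87 ± 0.09 (1.83-fold lower, adjusted p = 0.000121, limma). On rc_AI228113_s_at it read 10.66, 10.36 and 10.65, then 10.41, 9.83 and 10.12, then 10.15, 9.67 and 9.72. Here the short access arrays lay between and overlapped both groups, and the difference of -0.71 ± 0.15 (adjusted p = 0.033, limma) passed in 4 of 9 fits with an array left out (adjusted p up to 0.112).

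Of 9 markers of cortical and hippocampal excitatory neurons, 7 were below 0 (43.7% of all genes) and 1 of them (Nptxr) passed (0.866% of all genes). The kinase Camk2a stood at -0.58, the release protein Stx1a at -0.53, the peptide Cck at -0.42 and Bdnf at -0.31, while Nrgn (0.05) and Adra1d (0.19) were above 0. The list median was -0.31. Its summed signal was 8332 ± 315 without access, 7396 ± 426 after short access and 7392 ± 66 after long access, with no overlap between long and no access (exact permutation p = 0.1, the smallest possible, 0.2 adjusted). Nptxr is part of this sum, so the sum is not separate from its call. The part of cortical tissue at the edge of the dissection in the Nptxr value was not tested.

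Among 16 synaptic vesicle and release genes none passed, but 12 were below 0 (43.7% of all genes) and 5 had an unadjusted p under 0.05, all lower (over all 462 genes, 40 were lower and 45 higher at that level). The vesicle phosphoprotein Syn2 read 9.19, 9.17 and 9.29 without access and 8.68, 8.83 and 8.66 after long access, a difference of -0.49 ± 0.12 (adjusted p = 0.058, limma), and its other 2 probe sets stood at -0.39 and -0.27. The calcium sensor Syt4 stood at -0.31 (adjusted p = 0.121) on U14398_g_at but at 0.42 (adjusted p = 0.208) on U14398_at, where the arrays did not overlap either, so its probe sets disagreed in direction. Sncb stood at -0.33, whereas the abundant vesicle genes Snap25 (-0.03) and Syp (-0.01) were near 0. The list median was -0.11.

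Postsynaptic scaffold and adhesion genes were below 0 in 12 of 17, beside 43.7% of all genes, with a median of -0.13 and 1 fall (Nptxr, beside 0.866% of all genes). The heparan sulfate proteoglycan Sdc3 stood at -0.53 ± 0.14 (adjusted p = 0.0686), the neuroligin Nlgn3 at -0.26 and the scaffold Dlg4, known as PSD-95, at -0.00. Glutamate receptor genes did not pass: Gria1, an AMPA receptor subunit, read 10.07, 10.24 and 10.11 without access and 9.85, 9.88 and 9.62 after long access (-0.36 ± 0.10, adjusted p = 0.0673, limma), and its other 2 probe sets stood at 0.04 and -0.69. The 7 NMDA receptor genes ran from -0.33 (Grin3a) to 0.20 (Grin2b), and the metabotropic receptor Grm3 stood at -0.29 (adjusted p = 0.0831).

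Mag, the myelin-associated glycoprotein of the inner myelin wrap, fell on M22357_at. It read 10.27, 10.14 and 10.17 without access, 9.97, 10.03 and 9.76 after short access and 9.61, 9.48 and 9.45 after long access. The groups were separate and ordered by hours of access, with a difference of -0.68 ± 0.09 (1.6-fold lower, adjusted p = 0.000944, limma). Mag probe sets with a higher array signal did not follow: M22357_g_at stood at 0.02 ± 0.07 and X06554cds_s_at at -0.15 ± 0.09. None of the 6 oligodendrocyte genes passed when each was read on its brightest probe set, with Sox10 at -0.16, Mog at 0.04 and Mbp, myelin basic protein, at 0.23, a value that was -0.04 under quantile normalization. The oligodendrocyte sum overlapped between groups (35076 ± 1857 and 37049 ± 2238, exact permutation p = 0.3).

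Signalling genes gave 2 rises among 27 for calcium, cyclic AMP and protein kinase C, namely S100b and Gnb1, beside 1.3% of all genes. Gnb1, a beta subunit of heterotrimeric G proteins, read 9.76, 9.93 and 9.85 without access and 9.87, 9.82 and 9.75 after short access on U88324_g_at. After long access it read 10.38, 10.33 and 10.23, above all 6 other arrays, a difference of 0.46 ± 0.08 (1.38-fold, adjusted p = 0.00764, limma). Its other 4 probe sets did not pass and stood at 0.17, 0.28, 0.12 and -0.17. On the last of these, AF022083_s_at, short access was lower than no access by 0.92 (adjusted p = 0.0152, limma), so the probe sets of Gnb1 gave different pictures of the access groups. The neuronal calcium sensors Hpca (-0.21) and Hpcal4 (-0.32) and the kinase subunit Camk2b (-0.28) stood below 0 without passing.

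Hspb2, a small heat shock protein known mainly from muscle, read 7.04, 7.15 and 6.97 without access, 7.77, 7.78 and 7.66 after short access and 7.43, 8.22 and 8.30 after long access. Long access array 1 lay below the short access arrays, and the difference of 0.93 ± 0.21 just passed (adjusted p = 0.0388, limma). It passed in 1 of 9 fits with an array left out, that without long access array 1 (1.21). Of 22 genes of stress, oxidative defence and apoptosis none passed: the survival gene Bcl2 read 7.06, 7.24 and 7.34 without access and 8.50, 7.78 and 7.85 after long access (0.83 ± 0.20, adjusted p = 0.0502, limma), and Hrk, which promotes cell death, stood at -0.71 ± 0.20 (adjusted p = 0.0833) and at 0.19 on its other probe set.

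Calls without a usable gene name were L16764_s_at and AF007758_g_at, beside AB016161UTR#1_g_at. L16764_s_at, annotated to several genes, read 8.33, 8.48 and 8.53 without access and 8.99, 8.88 and 9.01 after long access (0.52, adjusted p = 0.033, limma). AF007758_g_at read 11.02, 11.01 and 11.05 without access and 10.78, 10.60 and 10.59 after long access (-0.37, adjusted p = 0.0376, limma). It was also lower after short access, at 10.72, 10.49 and 10.71.

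The probe sets of a gene often differed. Of the 12 called genes, 3 (Abat, Vim and Hspb2) had 1 probe set tested, 3 (Nptxr, Igfbp2 and S100b) had several that all went the same way, and 6 had at least 1 going the other way. Among genes without a call, 57 of the 133 with several probe sets tested (42.9%) had 1 or more going against the brightest. Of the 17 called probe sets, 5 had names without a suffix for possible cross-hybridisation, and those 5 also passed when the 384 probe sets without a suffix were tested alone. At the edge of the threshold, S100b, AF007758_g_at and Hspb2 passed with adjusted p from 0.036 to 0.0388, while Colq, which anchors acetylcholinesterase, read 8.48, 8.61 and 8.69 without access and 9.14, 8.95 and 9.25 after long access and did not (0.52 ± 0.13, adjusted p = 0.0502, limma). Colq was 1 of 24 probe sets with an adjusted p from 0.05 to 0.10, of which 13 were higher and 11 lower.

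Other gene lists held no call apart from Kcnj10 among 20 potassium channels. In that list the A-type channel genes Kcnd2 (-0.46) and Kcnd3 (-0.36) and the fast channel gene Kcnc4 (-0.56) stood below 0, with adjusted p of 0.17 for Kcnd2 and Kcnc4. Of 15 monoamine genes 11 were above 0, beside 56.3% of all genes. The count depended on the scaling, with 10 above 0 on the values as deposited and 9 under quantile normalization. The dopamine receptor Drd3 read 9.34, 9.18 and 9.22 without access and 9.66, 9.63 and 9.53 after long access (0.36 ± 0.09, adjusted p = 0.0626, limma), and the serotonin channel Htr3a stood at 0.40 (adjusted p = 0.15). The calcium pump Atp2b2 stood at 0.52 (adjusted p = 0.0502) on its brightest probe set, but at -0.05, -0.38 and -0.39 on its other 3, none of which passed. None of 14 activity-induced genes passed, with Fos at 0.25 (adjusted p = 0.161), Egr1 at -0.10 and Junb at -0.08.

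Septum, vessel and neighbour markers complete the lists. The 3 septal neuron genes tested did not pass, at 0.28 for Ngfr, 0.05 for Slc18a3 and -0.11 for Sst, and their summed signal was 4006 ± 143 without access and 4027 ± 265 after long access. The vessel genes Slc2a1 (0.29), Edn1 (0.49) and Pdgfrb (0.77) were all above 0 without passing, and their summed signal did not overlap, at most 1928 without access and at least 2229 after long access (exact permutation p = 0.1, the smallest possible, 0.2 adjusted). The vessel sum is mostly Slc2a1 (mean log2 signal 10.81), since Edn1 (6.96) and Pdgfrb (6.94) are dim. The 6 striatal genes ran from -0.23 (Tac1) to 0.27 (Adora2a) with 4 below 0. Their summed signal was higher after long access without overlap, at 5246, 4788 and 5096 without access and 5343, 5248 and 5251 after long access (exact permutation p = 0.1, the smallest possible, 0.2 adjusted). That sum is weighted to Pcp4, the brightest of the 6 (mean log2 signal 11.73), which stood at 0.16 without passing. The 4 microglia and immune genes did not pass and had a median of 0.20, and their sum overlapped between groups (3799 ± 13 and 3685 ± 219, exact permutation p = 0.4). Avp, a peptide of fibres that enter the lateral septum, read 8.16, 8.19 and 8.14 without access and 6.60, 7.58 and 7.84 after long access (-0.82 ± 0.27, adjusted p = 0.124, limma), while its other probe set stood at 0.04. The part of vessel or striatal tissue in the calls was not tested.

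**Figure D4:**
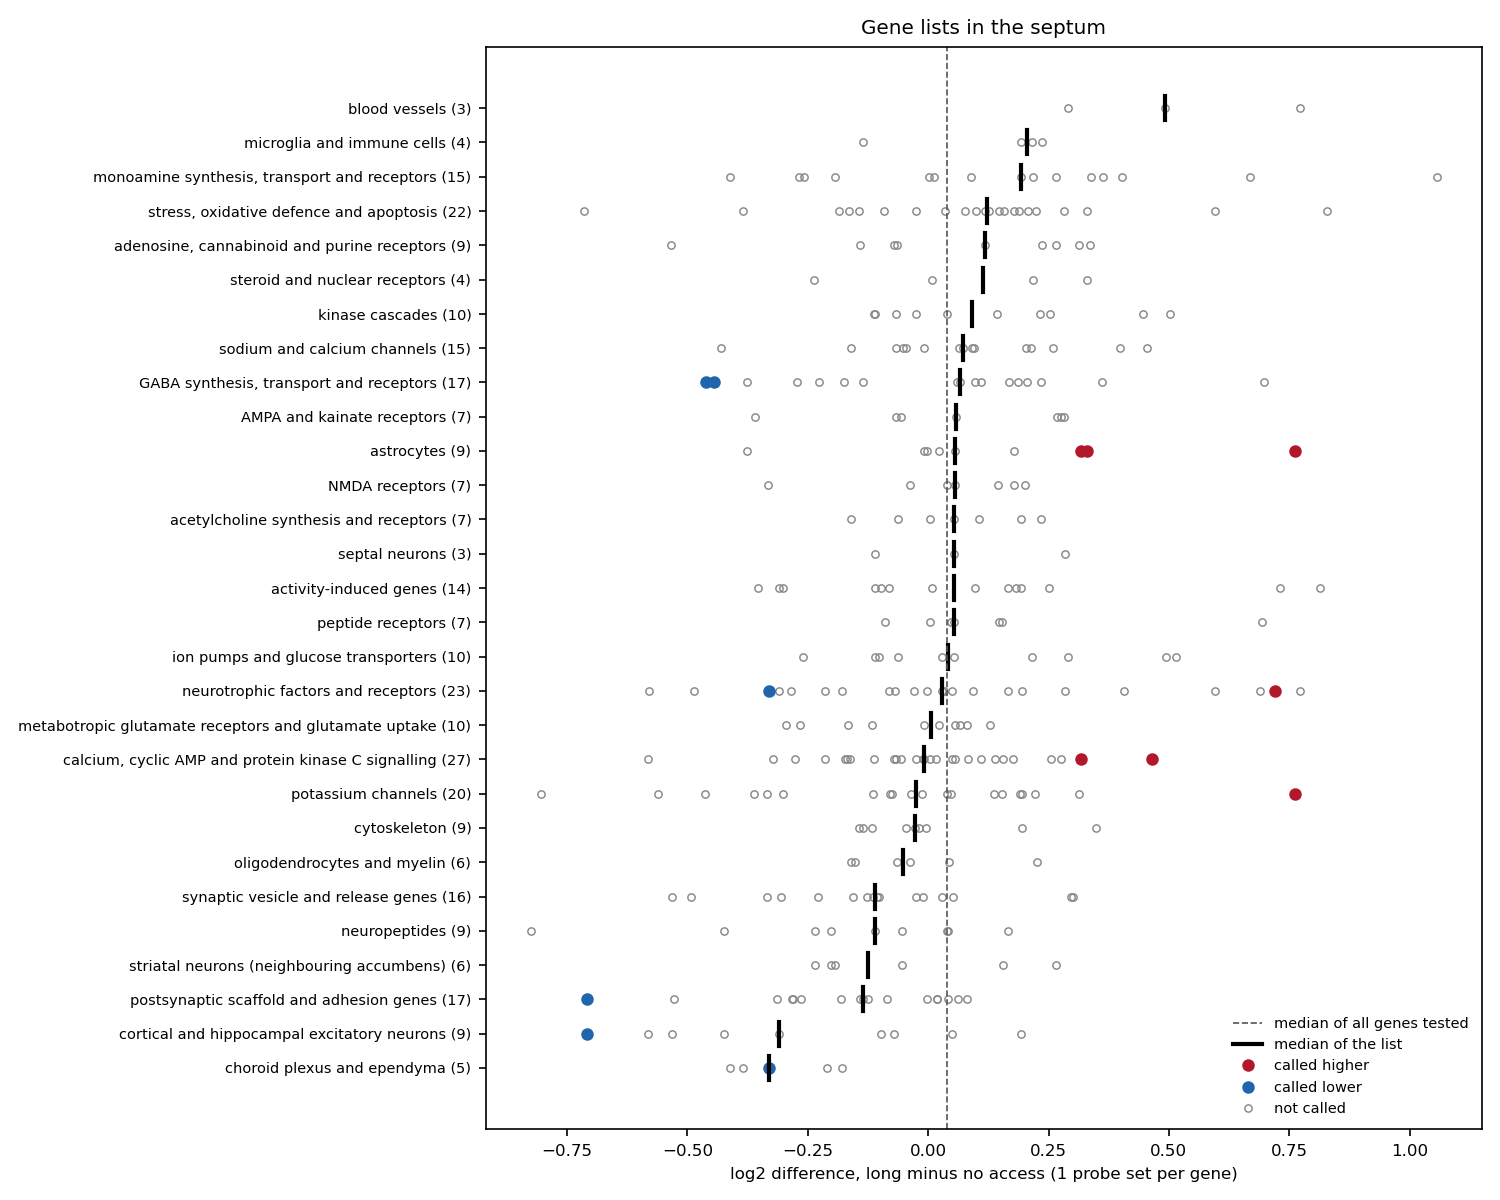
Log2 difference, long minus no access (x axis), for the genes of 29 lists (y axis, genes tested in parentheses), with 1 probe set per gene; points are genes, filled where called, black bars are list medians and the dashed line is the median of all genes tested. List medians run from -0.33 for choroid plexus to 0.49 for blood vessels, and calls are spread over 8 lists.

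Short access shared its controls with long access, so its values are set side by side without a test of their likeness. Short access differed from no access in 14 of 736 probe sets (1.9%), 3 higher (0.408%) and 11 lower (1.49%), and 4 of the 17 long access probe sets were also called there in the same direction (Fgfr1, Nptxr rc_AI045501_s_at, Abat and AF007758_g_at). In 13 of the 17 the short access mean lay between those of no and long access, as in 37.9% of all probe sets tested, and in 10 all 3 short access arrays did, as in 8.7%. The 17 were called for a wide gap between no and long access, which leaves more room between the 2 means. These counts are therefore a description and are not to be read against the shares over all probe sets. Several short access calls had no counterpart after long access. Sst, the interneuron peptide somatostatin, read 11.51, 11.35 and 11.33 without access, 10.84, 10.77 and 10.75 after short access and 11.46, 11.27 and 11.13 after long access. It was lower after short access by 0.61 (adjusted p = 0.00485, limma) and higher after long than short access by 0.50 (adjusted p = 0.0222), and its other probe set stood at -0.31 and 0.40 in these comparisons without passing.

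Long access differed from short access in 15 probe sets (2.04%), 6 higher (0.815%) and 9 lower (1.22%). Of these, 7 were also called against no access: Fgfr1 (0.41), Gnb1 (0.50), Igf2 (-0.88), Gabbr1 AB016160_g_at (-0.35), AB016161UTR#1_g_at (-0.36), Igfbp2 (-0.33) and Mag (-0.41). The largest difference upward was Gnb1 AF022083_s_at (0.75), followed by Sst and Gnb1 U88324_g_at, then Ptk2b, a calcium-activated tyrosine kinase (0.45), and Hspb1, another small heat shock protein (0.42). Downward, the endosomal syntaxin Stx7 (-0.72) followed Igf2. This comparison was the least stable: 0 probe sets passed without short access array 1, or without long access array 1 or 2.

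Whether the septal differences departed from those elsewhere was tested as the long minus no access difference in the septum minus its mean over the accumbens, amygdala, lateral hypothalamus, ventral tegmental area and medial prefrontal cortex. None of 858 probe sets passed (limma), and 58 had an unadjusted p under 0.05 (6.76%). Set against each region alone, 45 passed against the lateral hypothalamus (5.24%), whose no access arrays stood apart in their antisense controls, and 0 against each of the others. The 3 with the smallest p were Bcl2 (0.84 ± 0.24), Ddc, which makes dopamine and serotonin from their precursors (0.83 ± 0.24), and Nptxr rc_AI228113_s_at (-0.82 ± 0.24), each at an adjusted p of 0.346. Of the 17 called probe sets, 12 had a septal difference outside the range of the other 5 regions, which is a description since the calls were made on the septal values.

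Some called genes stood out by region in size and others did not. Abat was -0.46 in the septum and from -0.09 to 0.29 elsewhere, and Hspb2 was 0.93 in the septum and from -0.22 to 0.24 elsewhere. Fgfr1 (D12498_s_at) was 0.72 in the septum and 0.71 in the lateral hypothalamus, with -0.06 to 0.28 in the other 4 regions. On S54008_i_at these 2 regions differed, at -0.11 in the septum and 0.70 in the lateral hypothalamus. Igf2 (E00988mRNA_s_at) was -1.14 in the septum, -1.34 in the amygdala and 0.83 in the lateral hypothalamus. On its brightest probe set, X17012mRNA_s_at, the same regions stood at -0.18, -1.49 and 0.07. Kcnj10 ran from -1.19 in the medial prefrontal cortex to 1.01 in the amygdala, with a standard error of 0.62 in the septum in this fit against 0.10 in the septum alone.

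**Figure D5:**
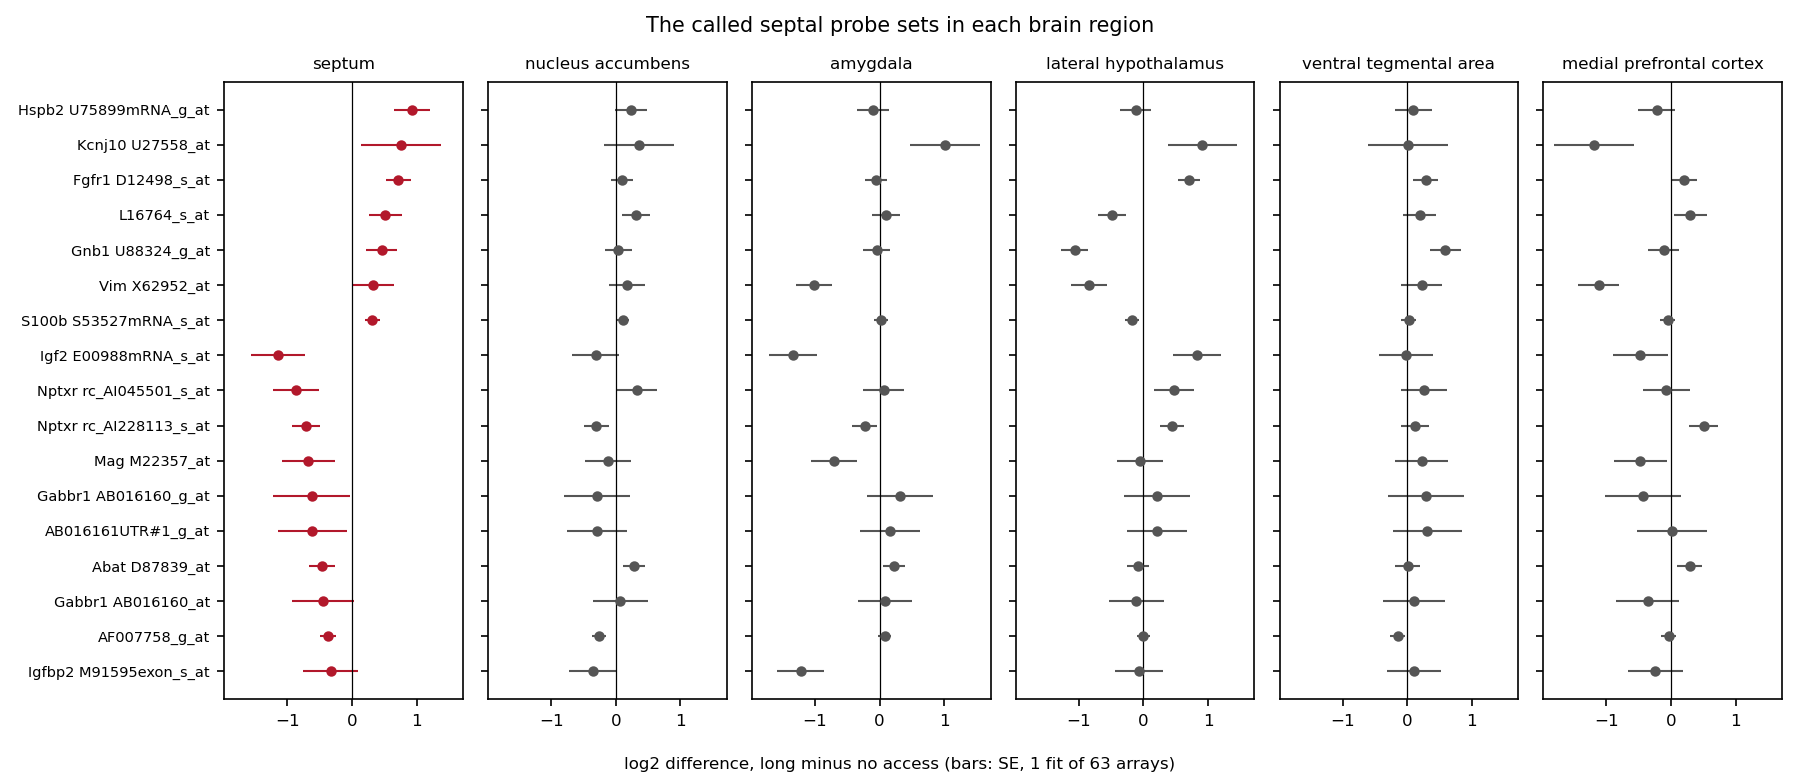
Log2 difference, long minus no access (x axis), of the 17 called septal probe sets (y axis) in each of 6 regions, with bars of 1 SE from a single fit of 63 arrays. Septal values lie outside the range of the other regions in 12 of 17, and all regions share 1 estimate of the spread.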

How the data were processed

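Total RNA (1 to 5 µg, depending on region) was made into biotin-labelled cRNA and hybridised, per the labels' protocols. The intensity values are linear MAS5 signals computed by the authors, per the submitters' processing notes. Over the 63 arrays the deposited values had a 2% trimmed mean of 250.8 to 251.3, so they had been scaled to a common target, and detection calls were not used here. Genes were named through the platform's annotation, checked against RefSeq symbols: of 1263 probe sets, 1137 had 1 symbol, 8 several and 118 none.

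Here the signals of each array were multiplied so that their 2% trimmed mean, controls apart, was 500, values under 32 were set to 32, and log2 was taken. Probe sets with a mean of at least 100 over the 9 septum arrays were fitted with limma 3.58.1 in R 4.3.3 (lmFit and eBayes with an intensity trend, 1 mean per access group), and p-values were adjusted by Benjamini-Hochberg over all 736 at a threshold of 0.05. A further fit of all 63 arrays tested 858 probe sets against the other regions. Precision is limited by the number of arrays, and the septal fit had 6 residual degrees of freedom. Single measures per array were compared by exact permutation, two-sided. Gene lists used 1 probe set per gene, that with the highest mean, and are described by counts, medians and, for cell type markers, the summed signal per array. The scripts were tested on simulated data.

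Named genes were the 12 with the largest rises and falls past the threshold, filled to 8 per direction by the smallest p, and per list up to 3 members with an unadjusted p under 0.05 or else the member with the smallest p. For long minus short access they were the 5 largest per direction, and for the regional difference the 3 with the smallest p. Other members named in the lists are given as values only. The comparison, the lists and the tests were chosen with earlier results of these data known. Promoters are RefSeq sequence of GRCr8, the last 250 bases before the gene start.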

Additional observations from a re-analysis of the deposited data

Results flagged for a closer look

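Among the named probe sets, 10 differed between regions by a test of the difference itself: the long minus no access difference in the septum minus that in the lateral hypothalamus, in the fit of all 63 arrays (limma, 858 probe sets, 45 past the threshold, 5.24%). The same test passed 0 probe sets against each of the other 4 regions. The lateral hypothalamus was set apart after the data were seen. Most named probe sets were chosen by a small p in the septal comparison, which is itself a term of this difference. Their count is therefore not to be read against the 5.24%. Its 4 no access arrays read 8.13 ± 0.21 (SD) on the antisense controls, against 6.84 ± 0.17 after short and 6.75 ± 0.15 after long access, and the part of this gap in the values below was not tested.

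Gnb1 (U88324_g_at) differed by 1.53 (adjusted p = 0.00205), from 0.46 in the septum to -1.06 in the lateral hypothalamus. Igf2 (E00988mRNA_s_at) differed by -1.97 (adjusted p = 0.0293), from -1.14 to 0.83. Nptxr (rc_AI228113_s_at) differed by -1.15 and the release protein Stx1a by -0.86, both at an adjusted p of 0.0115. The potassium channel gene Kcnc4 differed by -1.82 and the calmodulin-binding gene Pcp4 by 1.29, both at an adjusted p of 0.00205. The glucose transporter Slc2a1 differed by 1.00 (adjusted p = 0.00387), the growth factor Tgfb3 by 1.38 (0.036), the serotonin channel Htr3a by 0.62 (0.0433) and the purine receptor P2rx2 by 0.83 (0.048). In each of the 10 the septal and hypothalamic differences had opposite signs, which is a description since most were chosen by their septal values. Septal groups of 3 arrays are too small to be searched for single arrays that stand apart.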

How the results depend on the processing

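For septum long access minus no access, the count of 17 became 27 with array weights, 5 without cross-hybridisation suffixes, 9 with a fold of at least 1.5, 0 in the fit of all 63 arrays and 8 with the spike-in covariate. Leaving out 1 array gave 9 to 19. It was 12 to 24 under other scalings, no floor, other filters, no intensity trend and the 2 groups alone. For short minus no access, 14 became 8 without the trend, 31 with weights, 8 with the fold and 0 with all 63 arrays, and 7 to 15 with 1 array left out. For long minus short, 15 became 5 without the trend, 3 without suffixes, 3 with the fold, 9 with only the 2 groups and 0 with all 63 arrays, and 0 to 13 with 1 array left out. For the difference from the other regions, 0 became 6 without a filter and 15 with array weights, and 0 or 1 with 1 array left out, the 1 being without no access replicate 2. It stayed 0 without the lateral hypothalamus, an alternative chosen after seeing the data. Replicate numbers are shared between groups. Same-numbered arrays correlated at 0.0645 to 0.148 in their deviations from the group means, and arrays of different numbers at -0.152 to 0.00551. All 9 arrays thus correlated best with their own number, and the labels do not say what the numbers share. The correlations were too low by the rule used for the numbers to pair the arrays, so the main fit left them out. With the replicate block the counts were 29 (all 17 shared), 22, 20 and 0. Over 55 named probe sets, 1211 of 1212 alternative values kept their direction, among them all 311 for the called ones, and Mbp (K00512_at) turned to -0.0399 under quantile normalization. The cause of these shifts was not tested. Signal over background limits dim probe sets: 21.3% of probe sets on the no access arrays were at the floor.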

Other observations

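The widest differences of all 736 probe sets lay at low signal and did not pass. They were chosen after their values were seen. The beta-3 adrenergic receptor gene Adrb3 (S56481_s_at) stood at 1.06 ± 0.44 (SE, adjusted p = 0.217, limma), and the calcium release channel gene Itpr1 (U38812_s_at) at -1.30 ± 0.55 (adjusted p = 0.218, limma).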
